A study of Mus musculus with 6 samples.

Results

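The 10 genes described here encode netrins, their Unc5 and Dcc family receptors and the related ligand gene Rgma. They were chosen by symbol: Unc5a, Unc5b, Unc5c, Unc5d, Dcc, Neo1, Ntn1, Ntn3, Ntn4 and Rgma. All 10 are among the 24421 rows of the authors' deposited table, 9 had a base mean of at least 10, and 9 had an adjusted p. The choice was made with the fold changes of this comparison known, so the values below are a description of the family and support nothing by their number.

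RNA-seq was made from anterior palate mesenchyme of E12.5 embryos, on a C57BL/6 background, after enzymatic removal of the epithelium. The mutant samples were Wnt1Cre;Meis2f/f (n = 3) and the controls were wildtype, or WT (n = 3). Wnt1Cre drives recombination in neural crest cells, which form most of the palatal mesenchyme. Skeletal muscle, endothelial and blood cells in the sample are not targets of Wnt1Cre. Meis2 encodes a DNA-binding homeodomain protein. The WT samples are not described as carrying Wnt1Cre, and an effect of the transgene cannot be told apart from that of the deletion. The labels call the samples biological replicates without saying whether each was 1 embryo or a pool.

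Netrins are secreted proteins related to laminins that steer growing axons and migrating cells. Dcc and its relative neogenin, encoded by Neo1, are transmembrane netrin receptors best known for attraction. Unc5 receptors carry a death domain inside the cell and are known for repulsion, alone or together with Dcc. Several of these receptors are called dependence receptors, because they can promote cell death when no ligand is bound. Unc5 receptors also bind FLRT proteins, and neogenin also binds repulsive guidance molecules such as the one encoded by Rgma.

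A regulatory window is shown first, since the core motif of Meis proteins is TGACAG. RefSeq promoter windows of GRCm38.p6, from 250 bases before to 50 after a start, were matched for 6 of the 10 genes, namely Unc5a, Unc5b, Unc5c, Neo1, Ntn3 and Ntn4. No window was matched for Unc5d, Dcc, Ntn1 or Rgma, so these were not searched. The motif was searched on both strands and was present in 1 of the 6 windows, against 19.2% of all 32851 windows. The 6 windows were 68.3 to 82.7% GC, against a median of 52.7% over all windows, and the share was not adjusted for this. The window of Ntn4 (chr10:93640799-93641098, plus strand) holds the match, which starts at position -119 and is read here on the opposite strand. That of Unc5c (chr3:141465314-141465613, plus strand) is set beside it as a receptor window without one. Both are printed 5′ to 3′, with the match in capitals.
Ntn4: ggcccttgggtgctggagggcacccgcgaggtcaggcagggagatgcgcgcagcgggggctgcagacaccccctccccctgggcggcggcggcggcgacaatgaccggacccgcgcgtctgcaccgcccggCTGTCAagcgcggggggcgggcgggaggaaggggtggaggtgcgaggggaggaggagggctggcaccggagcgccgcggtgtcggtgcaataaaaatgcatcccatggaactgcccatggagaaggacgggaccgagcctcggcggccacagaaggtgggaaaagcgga
Unc5c: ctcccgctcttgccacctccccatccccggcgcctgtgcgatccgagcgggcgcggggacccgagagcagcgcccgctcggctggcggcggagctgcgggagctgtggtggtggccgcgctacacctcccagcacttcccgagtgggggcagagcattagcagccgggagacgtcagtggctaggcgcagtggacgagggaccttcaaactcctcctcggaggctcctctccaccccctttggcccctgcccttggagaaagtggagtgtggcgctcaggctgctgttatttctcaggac
A match is only a run of letters, and a window without one says nothing about binding elsewhere.

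The authors' deposited tables give each gene a base mean, which is the mean normalised read count over libraries, and a moderated log2 fold change, read here as mutant over WT. They hold no column per library. The base means are printed with enough digits that the whole reads of each library could be worked back from them, as described under the processing. For each of the 10 genes and for Meis2 the search gave a single set of whole reads that satisfied both tables. For Neo1 that search was limited to 0.5 to 2 times the base mean in each library. Recovered totals ran from 8947154 to 17997176 reads per library. Values per library are given in the order of the libraries' size factors, largest first, within each genotype, since replicate numbers are not known.

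The deleted gene itself was counted at 1250.0, 1378.3 and 1218.0 normalised reads in the mutant libraries, against 1526.1, 1549.4 and 1695.3 in the WT libraries. All mutant values of Meis2 lay below all WT values, by at least 147.8 normalised reads, which leaves 0.806 of the WT mean. The authors' deposited table gave Meis2 -0.28 on the log2 scale (SE 0.092), not called at an adjusted p of 0.0743 (DESeq2 Wald test). This gene fixes which side of the comparison is called mutant, so its direction is no independent check, and every direction given here rests on it. Libraries of a genotype also differed from each other. In the WT library with the middle size factor, the neuron gene Prph had 74.5 normalised reads, against 6.4 and 3.9 in the other WT libraries. In the mutant library with the smallest size factor, the muscle marker Actc1 had 721.5, against 332.5 and 420.5 in the other mutant libraries. The authors' deposited table of 4 libraries leaves out the library with the middle size factor of each genotype.

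**Figure D1:**
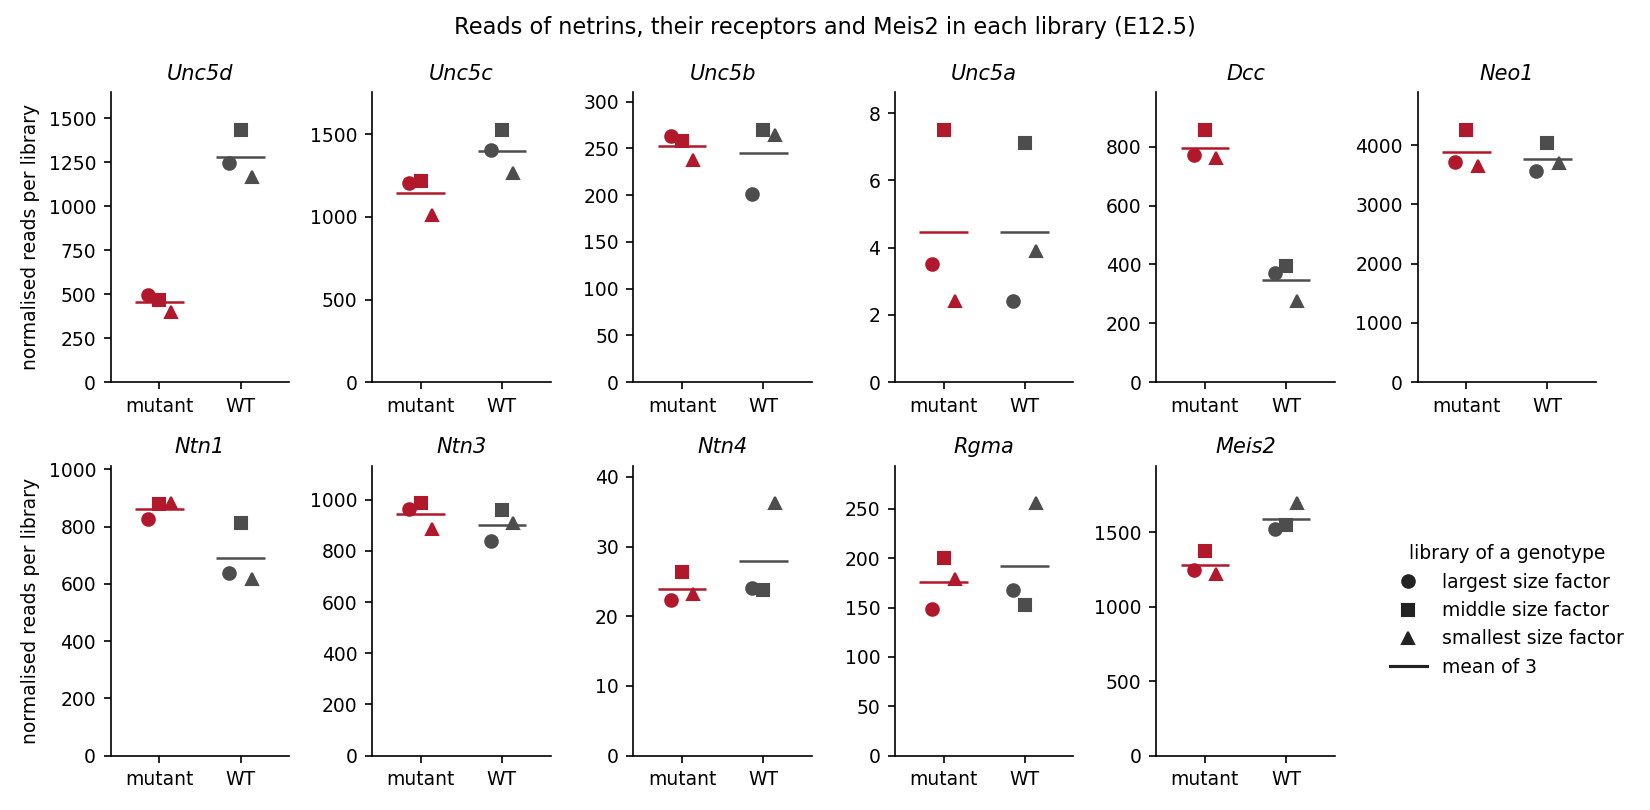
Normalised reads of the 10 genes and Meis2 in each of 3 mutant (left, red) and 3 WT (right, grey) libraries, with a panel per gene, a vertical axis from 0 and a line at the mean of 3. Unc5d lies between 399.9 and 496.0 in mutant and between 1168.5 and 1434.6 in WT libraries, while Dcc lies between 761.9 and 857.1 in mutant and between 276.3 and 396.2 in WT libraries.

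A pair of receptor genes changed, in opposite directions: Unc5d fell and Dcc rose in the mutant. By the authors' deposited table and its DESeq2 Wald test, 1 of the 9 tested genes rose and 1 fell, called at an adjusted p under 0.05. The background is 2.90% of 14942 genes called in either direction, 1.75% higher and 1.16% lower. With 4 libraries 2 rose and 1 fell, against 2.30% of all genes called, 1.31% higher and 0.99% lower. Above a base mean of 10, the authors' deposited table had a median log2 fold change of 0.04 over 9 of the netrin and receptor genes and of -0.013 over all genes.

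Unc5d, a netrin and FLRT receptor (chromosome 8, 28646717 to 29219636, minus strand, GRCm38), had 496.0, 469.5 and 399.9 normalised reads in the mutant libraries, against 1243.3, 1434.6 and 1168.5 in the WT libraries. The mutant libraries were all low, and the highest of them lay 672.5 normalised reads below the lowest WT library. The ratio of the means was 0.355. The authors' deposited table placed Unc5d at -1.27 (log2, SE 0.107, 95% interval -1.48 to -1.06; adjusted p 1.62e-28, DESeq2), the second lowest p of all genes. Moderation draws that value, on which the interval is centred, toward 0, to 0.415 of the WT level. It was also the second largest fall there above a base mean of 10. With 4 libraries the authors' deposited table had Unc5d at -1.16 (SE 0.110, adjusted p 2.63e-22).

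Dcc, the canonical netrin receptor (chromosome 18, 71253634 to 72351069, minus strand), had 771.4, 857.1 and 761.9 normalised reads in the mutant libraries, against 369.9, 396.2 and 276.3 in the WT libraries. Every mutant library was high, with a gap of 365.7 normalised reads to the highest WT library. The ratio of the means was 2.29. The authors' deposited table placed Dcc at 0.98 (log2, SE 0.115, 95% interval 0.75 to 1.2; adjusted p 1.57e-14, DESeq2), rank 22 among the rises and 24 by p. With 4 libraries the authors' deposited table had it at 0.95 (adjusted p 2.57e-12).

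None of the other Unc5 receptors was called. Unc5c (chromosome 3, 141465216 to 141834924, plus strand) had 1207.5, 1215.5 and 1010.1 normalised reads in the mutant libraries, against 1404.7, 1526.9 and 1266.6 in the WT libraries. The mutant values were lower without overlap, but the gap was 51.1 normalised reads and the spread within each genotype was larger. The authors' deposited table gave -0.25 (log2, SE 0.101, p 0.0134), which missed the threshold at an adjusted p of 0.241. Unc5b, which is known for its role in blood vessels, had 263.6, 257.8 and 237.2 normalised reads in the mutant libraries, against 201.4, 269.7 and 264.7 in the WT libraries. These values overlapped, and the authors' deposited table gave 0.04 (log2, 95% interval -0.20 to 0.29, adjusted p 0.955). Unc5a was barely present, with 5, 8 and 2 whole reads in the mutant libraries and 3, 6 and 3 in the WT libraries, and no difference was detectable at this depth.

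Neo1 (chromosome 9, 58874687 to 59036441, minus strand), the neogenin gene, was the most abundant of the 10. It had 3718.6, 4260.0 and 3655.3 normalised reads in the mutant libraries, against 3563.6, 4035.5 and 3697.8 in the WT libraries. The genotypes overlapped throughout. The authors' deposited table gave 0.04 (log2, 95% interval -0.14 to 0.22, adjusted p 0.942), an interval that leaves out a change of the size seen in Dcc.

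**Figure D2:**
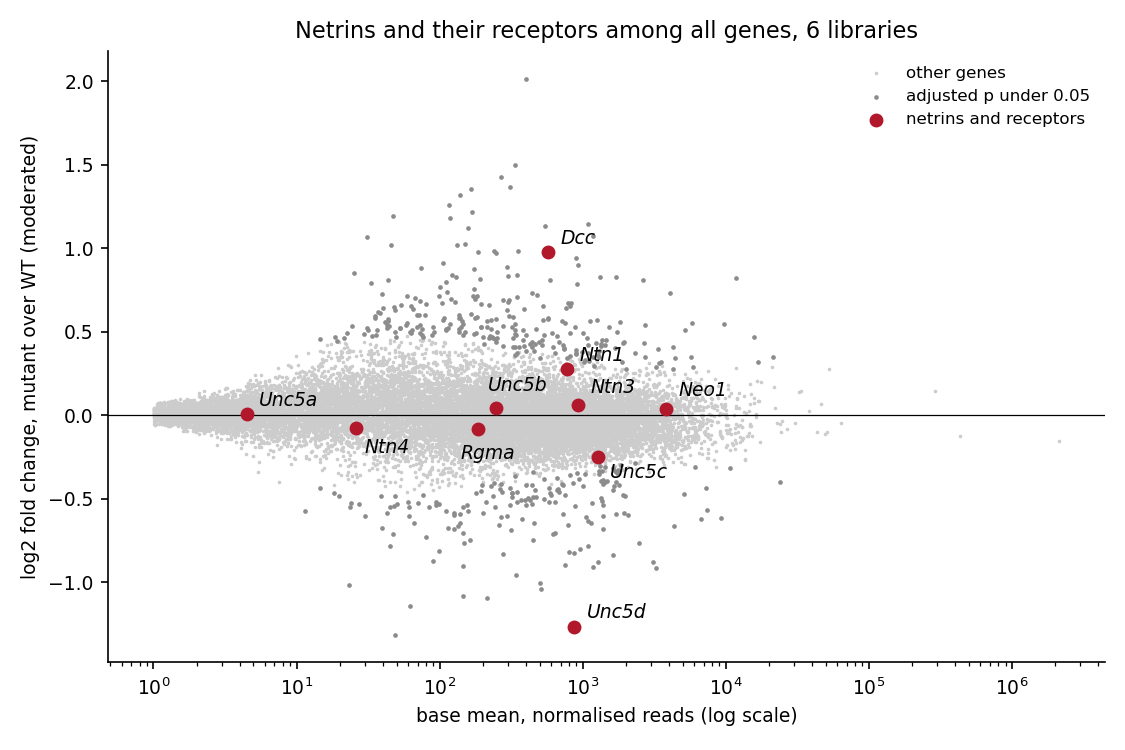
Log2 fold change, mutant over WT (vertical axis), against base mean (horizontal log axis) for all genes with base mean 1 or more in the authors' deposited table of 6 libraries. Genes with an adjusted p under 0.05 are dark grey and the 10 netrin and receptor genes red: Unc5d at -1.27 and Dcc at 0.98 lie apart from the other 8.

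Among the ligands, Ntn1 was somewhat higher in the mutant. Ntn1 (chromosome 11, 68209364 to 68400823, minus strand), the best studied netrin, had 828.4, 879.7 and 881.7 normalised reads in the mutant libraries, against 640.0, 813.7 and 617.2 in the WT libraries. The groups did not overlap, by 14.7 normalised reads, and the WT library with the middle size factor was the one near the mutant values. The authors' deposited table gave 0.27 (log2, SE 0.108, p 0.0108), not called at an adjusted p of 0.211. The authors' deposited table of 4 libraries leaves out that WT library and the mutant library with the middle size factor. It gave 0.38 (SE 0.105), called at an adjusted p of 0.0202 (DESeq2). Over leaving out each library in turn, the adjusted p of Ntn1 by limma ran from 0.0342 to 0.639.

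Ntn3 had 965.5, 986.0 and 885.4 normalised reads in the mutant libraries, against 838.2, 961.6 and 910.2 in the WT libraries. The values overlapped, and the authors' deposited table gave 0.06 (log2, adjusted p 0.920). Exons of Ntn3 share 89 bases, 1.74% of their length, with Tbc1d24 on the same strand, and 139 bases or 2.72% with the antisense gene BC028777, in GENCODE vM21, so a small part of its reads is uncertain. Ntn4 encodes a netrin of basement membranes, and its promoter window held the motif. It had 22.3, 26.3 and 23.2 normalised reads in the mutant libraries, against 24.0, 23.7 and 36.2 in the WT libraries. The values overlapped, and the authors' deposited table gave -0.08 (log2, 95% interval -0.37 to 0.21, adjusted p 0.932). With 157 reads in all libraries together, a moderate change of Ntn4 could not be seen. Rgma, the ligand of neogenin, had 148.2, 200.4 and 178.5 normalised reads in the mutant libraries, against 167.8, 152.6 and 255.6 in the WT libraries. The WT library with the smallest size factor was high, the genotypes overlapped, and the authors' deposited table gave -0.08 (log2, adjusted p 0.926). An antisense gene, A730056A06Rik, shares 258 bases or 4.65% of the exon length of Rgma, and it is not stated whether counting used strand.

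**Figure D3:**
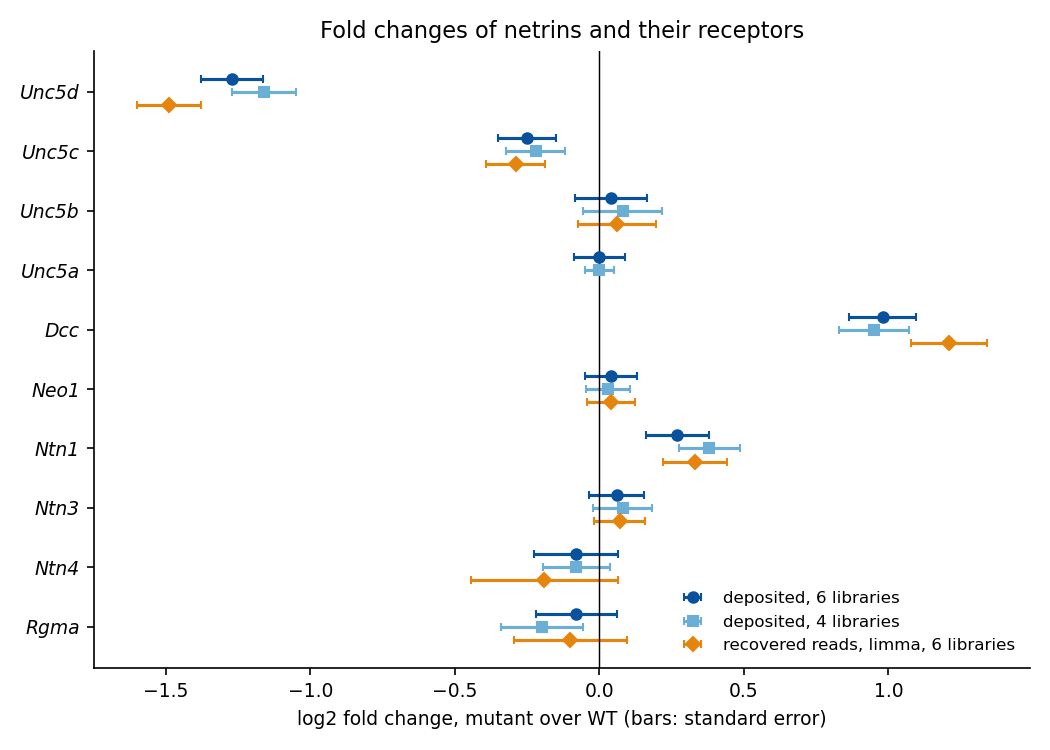
Log2 fold change, mutant over WT (horizontal axis), with its standard error for each of the 10 genes (rows) in the authors' deposited table of 6 libraries, in that of 4 libraries and in a limma fit to recovered reads. Unc5d stands at -1.27, -1.16 and -1.49 and Dcc at 0.98, 0.95 and 1.21 in these comparisons, while Unc5a has no limma value.

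Without moderation both differences were larger. A limma fit to log2(normalised read count + 1) of the recovered reads put Unc5d at -1.49 (SE 0.110, adjusted p 2.01e-04) and Dcc at 1.21 (SE 0.132, adjusted p 8.52e-04). Of 14134 genes with recovered reads and a mean of at least 10, 2.15% were called by this fit, 1.28% higher and 0.87% lower. No other netrin or receptor gene was called by it, with adjusted p of 0.211 for Ntn1 and 0.239 for Unc5c. Genotypes did not overlap for 4 of the 9 that reached a base mean of 10, namely Unc5d, Unc5c, Dcc and Ntn1, against a background of 17.6% of 14134 genes, 8.76% with the mutant above and 8.84% with it below.

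The make-up of the receptors differed between the genotypes. Per kilobase of exon, Unc5d made up 33.7%, 32.3% and 32.2% of the normalised reads of the Unc5 receptors in the mutant libraries, against 55.9%, 55.5% and 53.7% in the WT libraries. Unc5c took 39.5%, 40.3% and 39.2% in the mutant libraries, against 30.5%, 28.5% and 28% in the WT libraries. This is a share only, as Unc5c itself was not higher in the mutant libraries. It stood at 52.8 to 63.5 per kilobase there, against 66.2 to 79.8 in the WT libraries. Unc5d was thus the leading Unc5 gene per kilobase in WT libraries and Unc5c in mutant libraries. The ratio of Dcc to Unc5d per kilobase within a library, which no scaling between libraries can change, was 1.09, 1.28 and 1.33 in the mutant libraries. It was 0.208, 0.193 and 0.166 in the WT libraries. Reads of the 4 Unc5 genes summed to 1970.6, 1950.3 and 1649.6 normalised reads in the mutant libraries, against 2851.8, 3238.3 and 2703.7 in the WT libraries. With Dcc and Neo1 added, the sums overlapped, at 6460.6, 7067.4 and 6066.8 in the mutant libraries and 6785.3, 7670.0 and 6677.8 in the WT libraries.

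**Figure D4:**
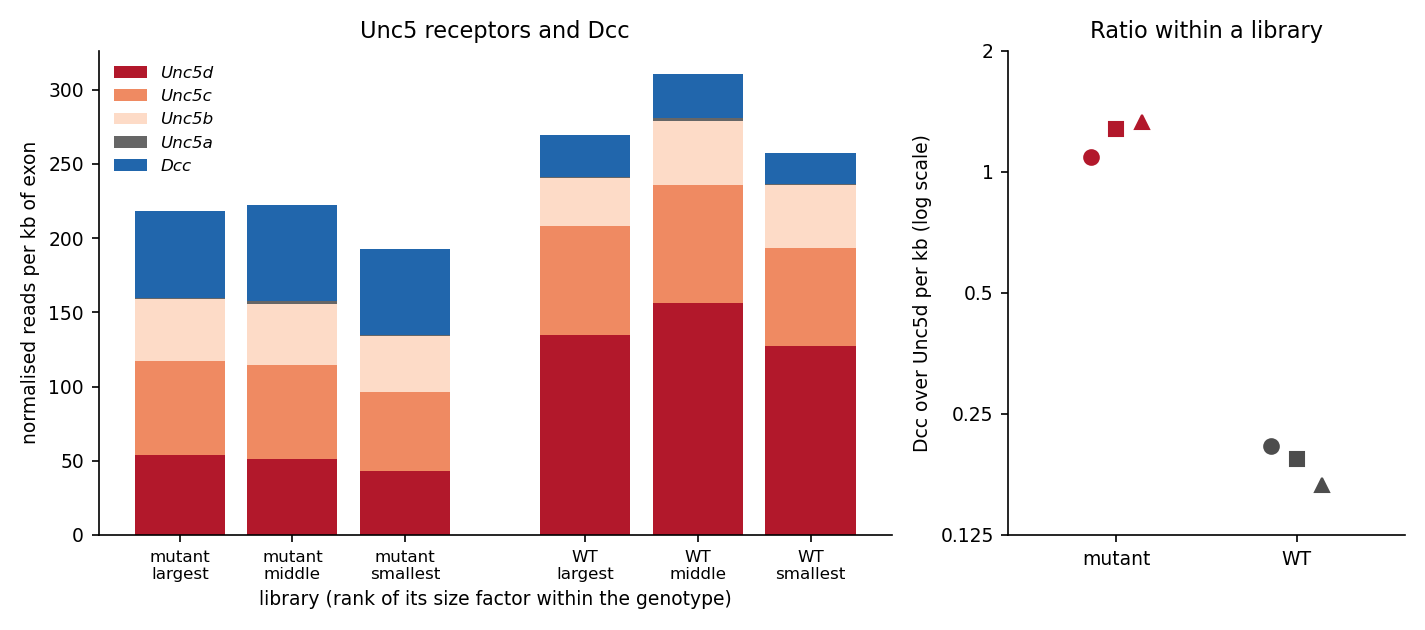
Left, stacked normalised reads per kilobase of exon of the Unc5 receptors and Dcc in each of 3 mutant and 3 WT libraries, and right, the ratio of Dcc to Unc5d per kilobase in each library on a log axis. The ratio lies between 1.09 and 1.33 in mutant and between 0.166 and 0.208 in WT libraries.

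Per kilobase of exon, the base means ran from 438 for Neo1 through 181 for Ntn3, 124 for Ntn1, 94.2 for Unc5d, 66.5 for Unc5c, 43.4 for Dcc, 39.8 for Unc5b, 33.2 for Rgma and 6.93 for Ntn4 to 1.07 for Unc5a. Exon lengths are those of GENCODE vM21, which may differ from the annotation the authors counted on. In mutant libraries the levels per kilobase were 57.8 to 65.1 for Dcc, 52.8 to 63.5 for Unc5c and 43.4 to 53.8 for Unc5d. The range of Unc5c overlapped those of Dcc and Unc5d, but within each mutant library Unc5c was above Unc5d. In WT libraries the levels were 21.0 to 30.1 for Dcc, 66.2 to 79.8 for Unc5c and 127 to 156 for Unc5d, with no overlap. The WT range of Unc5d overlapped that of Ntn1, at 98.3 to 130 per kilobase, but within each WT library Unc5d was above Ntn1. In mutant libraries Ntn1 stood at 132 to 140, without overlap with Unc5d.

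Other genes of the pathway were read from 3 lists. Of 15 measured genes (base mean of at least 10) on a list of netrin relatives, other ligands of these receptors and the partners of those ligands, 2 rose and none fell, with a median of 0.20 (log2), by the authors' deposited table. Flrt2, which encodes a membrane ligand of Unc5 receptors, rose by 0.82 on the log2 scale (SE 0.091, adjusted p 1.98e-16, DESeq2) by the authors' deposited table, and by 0.83 with 4 libraries. Its whole reads could not be recovered, with a base mean of 11800. Ntng1, encoding a membrane-anchored netrin G that does not bind Dcc, had 383.3, 433.7 and 388.9 normalised reads in the mutant libraries, against 188.6, 225.9 and 167.8 in the WT libraries. The mutant libraries were all higher, and the authors' deposited table gave 0.84 (log2, SE 0.121, adjusted p 1.13e-09, DESeq2). Hfe2, a relative of Rgma, had 18.1, 19.8 and 41.6 normalised reads in the mutant libraries, against 2.4, 14.2 and 9.0 in the WT libraries. The authors' deposited table gave 0.34 (log2), not called at an adjusted p of 0.141.

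By the authors' deposited table, none of 16 measured intracellular partners of the receptors was called (DESeq2), 1 had an unadjusted p under 0.05, and the median was -0.02 (log2). By limma 0 were called. Those with the largest values by the authors' deposited table were Trim9, a ubiquitin ligase that binds Dcc, at -0.29, Trio, a guanine nucleotide exchange factor, at 0.20 and the GTPase gene Cdc42 at -0.16. Trio was the one with an unadjusted p under 0.05, at 0.0272 (adjusted p 0.358, the authors' deposited table). The share of all genes under that unadjusted limit was not worked out. With 2.9% of all genes called, a list of 16 genes, or of 7 as below, can hold no call without differing from the background. The death arm of the dependence receptors, 7 measured genes, had none called (DESeq2), 0 with an unadjusted p under 0.05 and a median of -0.03 by the authors' deposited table, and 0 called by limma. Dapk1, a kinase that binds the death domain of Unc5 receptors, stood at 0.15 (adjusted p 0.632) by the authors' deposited table, with Siah1b at -0.09 and Maged1 at -0.08.

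**Figure D5:**
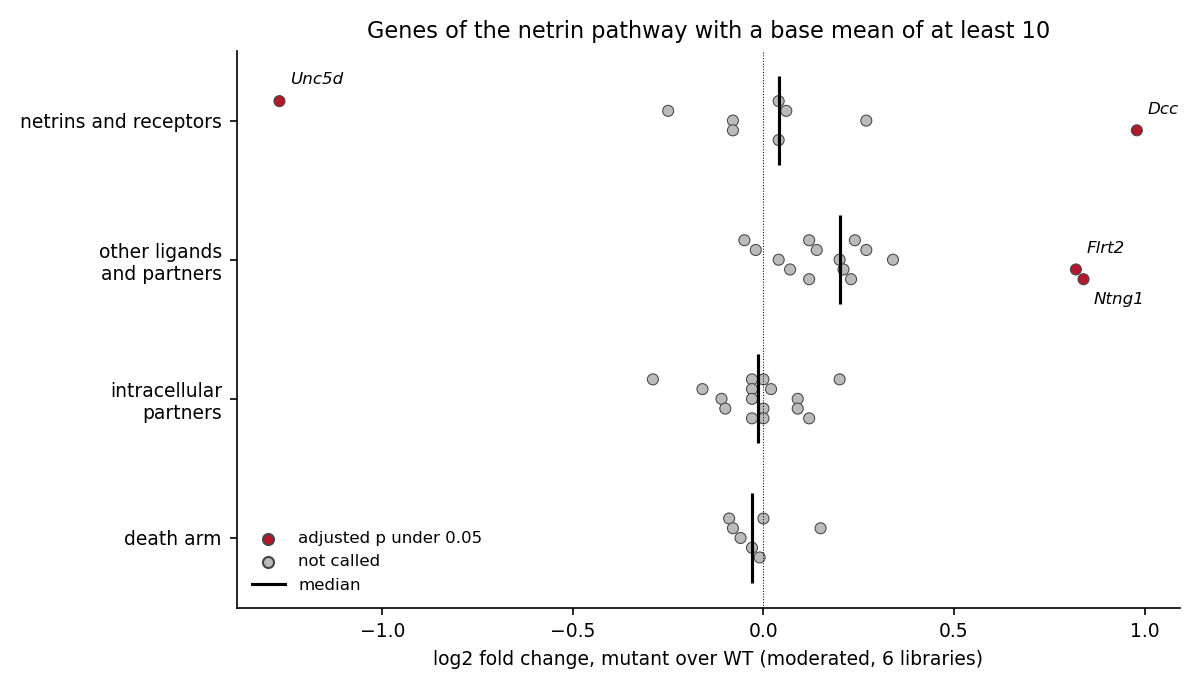
Log2 fold change, mutant over WT (horizontal axis), of genes above a base mean of 10 in 4 lists (rows), by the authors' deposited table, with a bar at each median. Unc5d at -1.27, Dcc at 0.98, Ntng1 at 0.84 and Flrt2 at 0.82 are the called genes.

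By the pair of log2 fold changes with 6 and 4 libraries, the genes nearest to Unc5d were Aldh1a2, which makes retinoic acid, Sytl5, Pdzrn4, Cpm and Shox2, which encodes a homeobox factor needed in the front of the palate. Their Euclidean distances from Unc5d ran from 0.319 for Aldh1a2 to 0.403 for Shox2. Their values by the authors' deposited table lay between -1.10 for Pdzrn4 and -0.90 for Shox2, a direction fixed by choosing them for their nearness to Unc5d.

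Markers of other cell types moved in the same libraries. Over all genes 1.75% rose and 1.16% fell by the authors' deposited table, and 1.31% and 0.99% with 4 libraries. Summed normalised reads of 12 neuron markers ran from 458.2 to 503.8 in the mutant libraries and from 676.6 to 1263.2 in the WT libraries, and 4 of 9 measured genes fell and none rose by the authors' deposited table. With 4 libraries 1 of them fell. Neurons are known to express netrin receptors. These markers were lower together with Unc5d, while Dcc was higher, and their part in either change was not tested. Muscle markers with recovered reads (7 of 9) summed to between 822.2 and 1452.8 in the mutant libraries and between 374.4 and 497.9 in the WT libraries, and 6 of the 9 rose by the authors' deposited table, against 2 with 4 libraries. Macrophage markers (8 genes) summed to between 932.8 and 1090.4 in the mutant libraries and between 608.1 and 765.2 in the WT libraries, and 3 rose by the authors' deposited table. Both lists were higher together with Dcc, Flrt2 and Ntng1, and their part in those rises was not tested. Schwann cell and glial markers (9 genes) summed to between 1195.7 and 1354.8 in the mutant libraries and between 1395.1 and 1878.2 in the WT libraries, also lower together with Unc5d, and that too was not tested. Of 8 measured genes on that list 1 fell by the authors' deposited table, and 0 with 4 libraries. Endothelial markers (10 genes) overlapped, at 7383.0 to 8552.0 in the mutant libraries and 6901.9 to 8701.3 in the WT libraries, as did Unc5b. Epithelial markers (8 of 9 with recovered reads) also overlapped, at 1094.5 to 1481.8 in the mutant and 991.6 to 1563.6 in the WT libraries, and so were still present after removal of the epithelium. No marker on these lists had a base mean of 0. Of 8 measured palatal mesenchyme markers 1 rose and 3 fell by the authors' deposited table. The 5 of them with recovered reads summed to between 3494.2 and 4068.6 in the mutant libraries and between 3687.7 and 5402.1 in the WT libraries, which overlapped. In bulk tissue, fewer cells of a type and less RNA per cell cannot be told apart.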

How the data were processed

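RNA was extracted from 3 Wnt1Cre;Meis2f/f and 3 WT samples, amplified and made into TruSeq v2 libraries, per the labels' protocols. The submitters' processing notes name HISAT2, featureCounts, DESeq2 and the builds GRCm38 and mm10. No version or setting is given there, and use of strand is not stated. The authors deposited 3 tables of their own comparison: base means (a signal, reads divided by size factors), moderated log2 fold changes with log2 standard errors, Wald scores, p-values and adjusted p-values. All 1613 rows of the third table have the base mean of the same gene in the first, and their other columns were not compared. Genes were called at the deposited adjusted p under 0.05, over all genes.

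Base means are deposited to 10 digits in the first table and to 15 in the second. Genes with a single read take 6 levels of base mean in the first and 4 in the second, which give the size factors (0.775 to 1.44), and the sign of their fold change gives the side of the comparison, hence the genotype. Whole reads that solve both tables were sought by lattice reduction, and were found for 97.9% of 20970 genes. They were sought among all whole numbers for 9 netrin and receptor genes and Meis2, and within 0.5 to 2 times the base mean in each library for Neo1. Each of these searches gave 1 solution. For all other genes the solution nearest to the deposited base mean and fold change was taken, without a search for more than 1. Recovered values had the sign of the deposited fold change for 99.1% of genes above a base mean of 10. The lattice search aimed at levels set by that fold change, so this share is no independent check. The weights of the lattice were those, of the few tried, that solved the most genes, and the size factors were refined by least squares on the genes solved. Before that refinement Meis2 had more than 1 solution. This recovery was added after the data were examined, and was tested on simulated data. The simulation was given the size factors, so it did not test how they were estimated or refined. A limma 3.58.1 fit (R 4.3.3, mean-variance trend, pseudocount 1, mean of at least 10, Benjamini-Hochberg) was run on the recovered reads. With replicate sources unstated, p-values measure only the spread between these samples.

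Genes named are the 10 members, Meis2, listed partners called in either full table, the 3 partners per list with the largest fold change, and the 5 genes nearest to Unc5d. Prph and Actc1 were named after their values were seen. The members and lists were chosen with earlier results of these data known.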

Additional observations from a re-analysis of the deposited data

How the results depend on the processing

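No paired analysis was possible because the libraries behind the tables carry no replicate number. Unc5d fell and Dcc rose, both called, with 4 libraries, by limma on recovered reads and without each library in turn. Re-adjustment over other sets of genes left the fold changes as they were, so it tested only the calls, which held. Centring on the median gene left the adjusted p as deposited and was too small a shift to turn either sign, so it tested neither. Leaving out 1 library gave log2 fold changes of -1.56 to -1.40 for Unc5d (adjusted p 5.29e-05 to 0.00194) and 1.05 to 1.31 for Dcc (5.45e-04 to 0.00769, limma). The number of called netrin and receptor genes was 2 at adjusted p limits of 0.1 and 0.01 and by limma, and 3 with 4 libraries. It ran from 2 to 3 when each library was left out. Of all genes, 2.30% were called with 4 libraries and 2.15% by limma. That share was not worked out for the other limits or for the fits without 1 library.

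Ntn1 was called with 4 libraries (0.38). Without 1 library its log2 fold change ran from 0.26 to 0.46, called only without the WT library with the middle size factor (adjusted p range 0.0342 to 0.639). Meis2 was called with 4 libraries (-0.33), and ran from -0.36 to -0.26 without 1 library (0.0489 to 0.354), called only without the mutant library with the middle size factor. Unc5a turned to -0.001 with 4 libraries, where its value with 6 was 0.005. Signs also turned without 1 library for Unc5b (-0.08 to 0.13), Neo1 (-0.03 to 0.09), Ntn4 (-0.29 to 0.00) and Rgma (-0.25 to 0.12), none of them called, while Unc5c (-0.36 to -0.20) and Ntn3 (0.01 to 0.11) kept theirs. By limma 1 gene on the list of netrin relatives, ligands and partners was called, as Flrt2 had no recovered reads. Called neuron markers numbered 1 with 4 libraries and 1 by limma, Schwann cell and glial markers 0 and 0, and muscle markers 2 with 4 libraries. By limma 2 palatal mesenchyme markers were called. The cause was not tested. Depth limits what can be said of Unc5a and Ntn4.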
